A study of Homo sapiens with 9 samples.

Results

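The genes described here are 7 genes of the hypoblast: the transcription factors GATA6, GATA4, SOX17, SOX7, FOXA2 and HNF4A and the receptor tyrosine kinase PDGFRA. They were chosen by symbol, with earlier results of these data known, and all 7 were found among the 40332 gene symbols of a human count table. The table comes from RNA-seq of H1, an established wild-type human embryonic stem cell line, with 9 libraries in 3 groups of 3. PXGL libraries came from cells in PXGL, a medium for naive human pluripotent cells that combines LIF with chemical inhibitors of the MEK, WNT and protein kinase C pathways. N2B27 libraries came from PXGL-derived H1 cells in the basal medium N2B27, and the inhibitor libraries from such cells in N2B27 with 5 µM EPZ-6438 for 3 days. EPZ-6438 (tazemetostat) blocks the enzyme activity of EZH2, the subunit of Polycomb repressive complex 2 (PRC2) that methylates histone H3, and does not delete the gene. All groups are of 1 cell line and carry no gene edit named in the labels. The time spent in N2B27 without the inhibitor and any vehicle were not stated, so time in N2B27 and the inhibitor cannot be told apart if those times differ. The mouse experiments that the series text also describes are not analysed here. The stated question of the series is whether EZH2 holds back the primitive endoderm fate in human as in mouse cells.

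The hypoblast, called primitive endoderm in the mouse, is the epithelium that forms beside the pluripotent epiblast in the blastocyst and later lines the yolk sac. GATA6 and GATA4 are zinc-finger factors at the head of its gene programme, SOX17 and SOX7 are related HMG-box factors, FOXA2 and HNF4A act in endoderm and later in liver, and PDGFRA binds PDGF ligands on the surface of hypoblast cells. PRC2 deposits H3K27me3 at many developmental regulators whose start sites are rich in CG dinucleotides.

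Windows around the annotated start sites are shown for GATA6 and HNF4A, which rose with the inhibitor, and for PDGFRA, which did not pass the test. Each window is of 300 bases, from 250 before to 50 after a RefSeq transcript start on GRCh38.p14, and a table of 35116 such windows was searched. Windows of 3 of the 7 genes are described, 5 in all. No window was found for FOXA2, and those of the remaining genes are not described, so the motif results do not cover them. GATA6 and PDGFRA are printed with every CG in capitals. GATA6 lies at chr18:22169339-22169638 on the plus strand, and the PDGFRA window shown lies at chr4:54233710-54234009 on the plus strand.
GATA6: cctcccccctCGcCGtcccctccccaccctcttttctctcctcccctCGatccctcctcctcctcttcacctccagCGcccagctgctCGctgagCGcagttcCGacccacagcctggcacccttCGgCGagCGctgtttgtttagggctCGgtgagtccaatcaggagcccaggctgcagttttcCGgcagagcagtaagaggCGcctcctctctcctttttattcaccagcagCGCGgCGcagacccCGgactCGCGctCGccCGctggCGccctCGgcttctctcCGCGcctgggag
PDGFRA: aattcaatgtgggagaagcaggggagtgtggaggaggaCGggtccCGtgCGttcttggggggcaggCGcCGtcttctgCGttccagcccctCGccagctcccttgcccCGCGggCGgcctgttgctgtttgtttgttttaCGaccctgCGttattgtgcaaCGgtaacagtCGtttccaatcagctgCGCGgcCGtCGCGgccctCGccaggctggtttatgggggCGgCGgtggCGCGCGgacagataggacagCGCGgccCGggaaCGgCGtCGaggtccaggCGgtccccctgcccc
The GATA6 window holds 25 CG dinucleotides, 0.82 of the number its base composition would give, and 68.0% of all windows hold fewer. The PDGFRA window holds 32, an observed-to-expected ratio of 0.97, and 81.1% of windows hold fewer. A PDGFRA window at the other annotated start, chr4:54229043-54229342 on the plus strand, holds 8. Across all windows the median was 14 and the quartiles were 4 and 28.

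The HNF4A windows belong to separate annotated starts of the gene, both on the plus strand, at chr20:44355449-44355748 and chr20:44400989-44401288. They are printed with the GATA motif in capitals, searched as the letters AGATAA or TGATAA on both strands.
HNF4A upstream start: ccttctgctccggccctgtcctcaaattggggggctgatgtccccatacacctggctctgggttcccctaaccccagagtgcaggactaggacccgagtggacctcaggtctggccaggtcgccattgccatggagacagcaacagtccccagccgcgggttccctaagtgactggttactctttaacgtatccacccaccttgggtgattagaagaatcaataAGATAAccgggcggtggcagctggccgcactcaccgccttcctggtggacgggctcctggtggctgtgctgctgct
HNF4A downstream start: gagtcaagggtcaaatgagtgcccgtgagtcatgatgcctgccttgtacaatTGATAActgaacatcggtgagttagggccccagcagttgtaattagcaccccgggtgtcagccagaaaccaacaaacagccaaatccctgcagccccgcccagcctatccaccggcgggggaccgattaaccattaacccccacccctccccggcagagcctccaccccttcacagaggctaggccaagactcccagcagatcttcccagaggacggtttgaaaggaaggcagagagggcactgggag
The upstream window holds AGATAA from its base 225, which leaves 20 bases between the motif and the start. The downstream window holds TGATAA from its base 53, with 192 bases between the motif and the start. These HNF4A windows hold 11 and 9 CG dinucleotides. GATA letters stood in both HNF4A windows and in neither the GATA6 window nor those of PDGFRA, against 16.3% of all windows. Of the other motifs searched on both strands, the SOX search took ACAAAG, and also the letters ACAATG, and likewise the letters ACAATA. It matched the CG-rich PDGFRA window and 29.3% of all windows. The FOXA search took TGTTTAC and the variant with the letters TGTTTGC, found in 7.2% of windows, and the HNF4A search took CAAAGTCCA, found in 0.4%. Neither matched any of the 5 windows. A match is a description of letters, and no binding or histone mark was measured in these libraries.

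Levels are given as CPM, the counts of a gene relative to the scaled total of its library, scaled by library with the TMM factors of edgeR, and as mean ± SD over the 3 libraries of a group. Library totals ran from 17499691 to 18358519 counts for PXGL, from 14482124 to 15295189 for N2B27 and from 14719595 to 16479593 for the inhibitor, so that 3 counts were 0.163 to 0.207 CPM. PXGL replicate 1 was unlike the remaining PXGL libraries: its count differences from them were 19.56 and 26.33 per degree of freedom (chi-square), against 2.57 to 3.66 for every other pair within a group. Results of the 7 genes against PXGL are therefore also given without it, and those of other genes are with all libraries. The label of embryonic stem cells was checked on the pluripotency genes POU5F1, NANOG and SOX2, which were at 1177.6, 353 and 63.6 CPM in the inhibitor libraries and higher in the other groups. No source says whether replicates are separate cultures, so the p-values speak only of the spread among these 9 libraries, which may be technical.

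Tests used edgeR's quasi-likelihood fit over all 15179 genes that passed its filter on low counts, with Benjamini-Hochberg adjustment, and a gene was called at an adjusted p under 0.05. Of the 7 genes, 5 passed the filter, and SOX17 and FOXA2 did not. GATA6 passed it only through the inhibitor libraries, where it is high. In the inhibitor libraries against N2B27, GATA6, GATA4 and HNF4A rose and SOX7 and PDGFRA did not pass, where 14.2% of all tested genes were called higher and 10.6% lower. In N2B27 against PXGL, GATA6 and GATA4 rose and HNF4A fell, where 27.3% of all tested genes were higher and 28.7% lower. With the inhibitor against PXGL, GATA6, GATA4 and SOX7 rose and HNF4A fell, where 28.1% were higher and 28.0% lower. The median log2 fold change of the 5 was 0.70, 0.58 and 0.85 in these comparisons in turn, beside 0.007, -0.028 and -0.001 over all tested genes. These medians include GATA6, leave out SOX17 and FOXA2, and are of genes chosen with earlier results known. Nothing about the genes as a set is read from them. Without PXGL replicate 1, 5770 genes in place of 3752 were called with the inhibitor against N2B27, and the calls of GATA6, GATA4 and HNF4A held. The comparisons share groups of libraries and are not independent of each other.

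**Figure D1:**
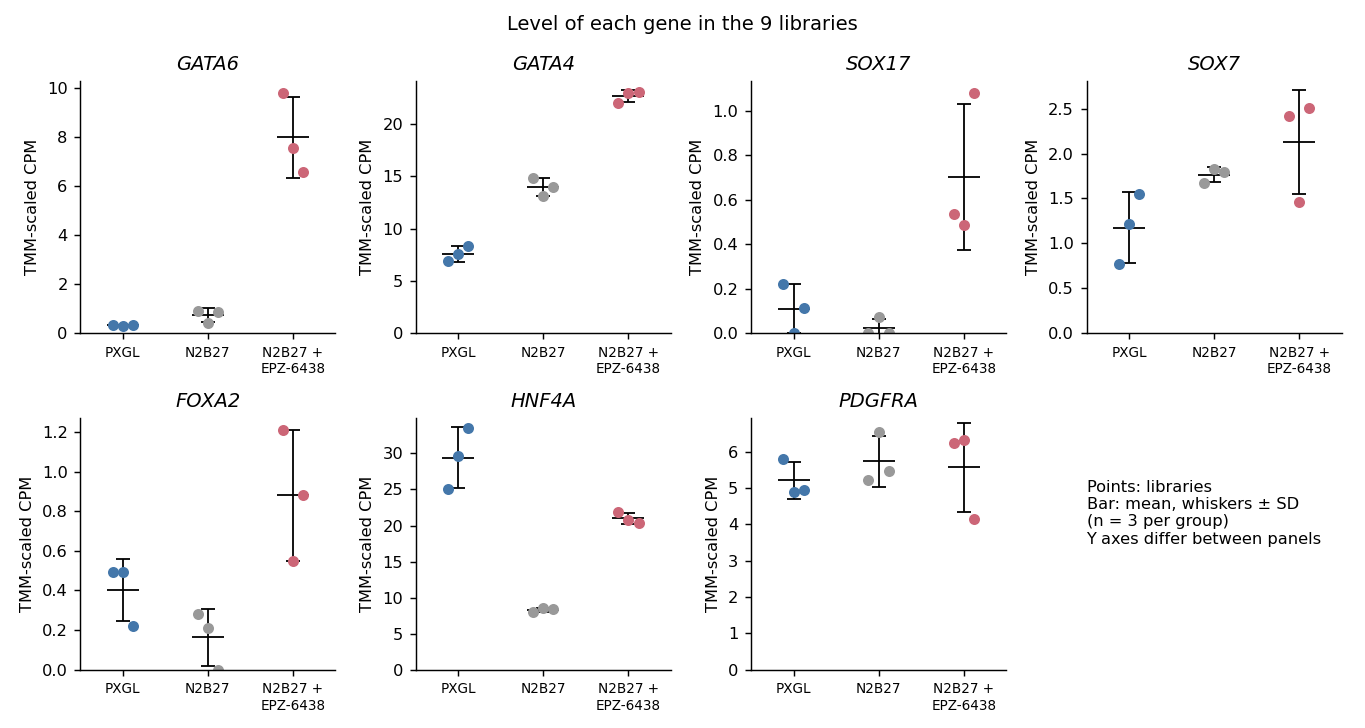
Level of each of the 7 genes in the 9 libraries, in TMM-scaled CPM on a linear axis that starts at 0 and differs between panels. Points are libraries, bars are group means and whiskers are ± SD (n = 3). The inhibitor libraries of GATA6 sit between 6.58 and 9.79 CPM, above all others, while those of PDGFRA, at 4.14 to 6.32 CPM, overlap both other groups.

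GATA6 (hg38 chromosome 18, 22169443 to 22202528, plus strand) specifies the hypoblast, and its level was close to the detection floor without the inhibitor. It was at 0.329, 0.274 and 0.333 CPM in the PXGL libraries, from 6, 5 and 6 counts. In N2B27 it was at 0.905, 0.422 and 0.867 CPM, from 13, 6 and 13 counts. With EPZ-6438 it was at 9.79, 7.54 and 6.58 CPM, from 146, 124 and 97 counts. All inhibitor libraries lay above all N2B27 libraries, and these lay above all PXGL libraries. Group means were 0.312 ± 0.0331, 0.731 ± 0.269 and 7.97 ± 1.65 CPM (SD, n = 3). GATA6 rose 10.8-fold with the inhibitor against N2B27 (log2 fold change 3.43, SE 0.30, 95% interval 2.79 to 4.06, edgeR adjusted p = 3.34e-07). By fold it was number 51 of the 2149 genes that rose. In bulk RNA, more cells with a transcript and more transcript per cell cannot be told apart.

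The GATA6 difference between N2B27 and PXGL was smaller and rested on few counts, in groups that would not have passed the filter on their own. GATA6 rose 2.32-fold (log2 fold change 1.21, interval 0.28 to 2.14, edgeR adjusted p = 0.0264), with 32 summed counts in N2B27 and 17 in PXGL. The call was lost when N2B27 replicate 1, N2B27 replicate 3 or PXGL replicate 2 was left out (adjusted p = 0.0952, 0.0881 and 0.0707). It was kept without PXGL replicate 1, at a log2 fold change of 1.25. With the inhibitor against PXGL, GATA6 rose 24.9-fold (log2 fold change 4.64, edgeR adjusted p = 4.72e-09), or 4.68 on the log2 scale without PXGL replicate 1.

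GATA4 (chromosome 8, 11676959 to 11760002, plus strand), which acts beside GATA6 in the hypoblast, was already expressed in PXGL and stepped up in both comparisons. The PXGL libraries were at 6.86, 7.56 and 8.38 CPM. The N2B27 libraries were at 14.8, 13.1 and 14.0 CPM, and the inhibitor libraries at 22.0, 23.0 and 23.1 CPM. No library of a group overlapped the next group in this order. Means were 7.60 ± 0.765, 14.0 ± 0.877 and 22.7 ± 0.608 CPM (SD, n = 3). GATA4 rose 1.62-fold with the inhibitor against N2B27 (log2 fold change 0.70, SE 0.11, interval 0.46 to 0.94, edgeR adjusted p = 2.24e-04), number 1136 of the 2149 rises by fold. It rose 1.84-fold in N2B27 against PXGL (log2 fold change 0.88, edgeR adjusted p = 1.22e-05) and 2.99-fold with the inhibitor against PXGL (1.58, adjusted p = 8.91e-09). Without PXGL replicate 1 these last log2 values were 0.81 and 1.51.

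Levels of different genes were compared per transcript length, as TPM, which divides counts by the length of the longest annotated transcript and rescales each library to the same total. On this scale GATA6 was 3.74 ± 0.547% of GATA4 in PXGL, 4.68 ± 1.53% in N2B27 and 31.9 ± 7.52% with the inhibitor (SD, n = 3). The PXGL and N2B27 shares differed by less than the larger of their SDs, and the inhibitor share was above both. With the mean length of the annotated transcripts in place of the longest, the shares were 2.20%, 2.75% and 18.7%. GATA6 thus remained below GATA4 in every group on both scales.

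SOX17 (chromosome 8, 54457935 to 54460888, plus strand), an HMG-box factor that marks the human hypoblast and definitive endoderm, was at or near 0 outside the inhibitor group. It had 4, 0 and 2 counts in the PXGL libraries and 0, 1 and 0 in the N2B27 libraries. With EPZ-6438 it had 8, 8 and 16 counts, or 0.537, 0.487 and 1.08 CPM. The inhibitor libraries lay above all 6 others, and PXGL and N2B27 overlapped. From 32 against 1 summed counts, the CPM ratio was 30.3 for the inhibitor over N2B27, with a 95% counting interval of 5.05 to 1231.7. Against PXGL, with 6 summed counts, the ratio was 6.30 (2.60 to 18.4). Counting intervals cover counting error only. An exact permutation test of 3 against 3 libraries gave p = 0.1 (two-sided) in both cases, the smallest it can give.

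When no low-count filter was used, SOX17 was higher with the inhibitor than in N2B27 by 4.51 on the log2 scale (edgeR adjusted p = 0.00482), and DESeq2 gave an adjusted p of 0.00876. This edgeR call was lost without inhibitor replicate 3, the library with 16 counts, at an adjusted p of 0.0599. Against PXGL the unfiltered log2 difference was 2.58 (edgeR adjusted p = 0.0268), and the call was kept in 5 of 9 fits that left out 1 library. Without PXGL replicate 1 it was 3.48 (adjusted p = 0.0164), and N2B27 minus PXGL was -1.03 (adjusted p = 0.690). PXGL and N2B27 were not told apart at this depth (edgeR adjusted p = 0.326 without the filter).

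SOX7 (chromosome 8, 10723768 to 10730512, minus strand), a SOX17 paralog of parietal endoderm and endothelium, varied less. The PXGL libraries were at 0.768, 1.21 and 1.55 CPM. The N2B27 libraries were at 1.67, 1.83 and 1.80 CPM, and the inhibitor libraries at 2.42, 1.46 and 2.51 CPM. Inhibitor replicate 2 lay within the PXGL range, so the inhibitor group overlapped both others. The level with the inhibitor was 0.26 higher than in N2B27 on the log2 scale (95% interval -0.46 to 0.98, edgeR adjusted p = 0.622), and that in N2B27 0.58 higher than in PXGL (-0.17 to 1.34, adjusted p = 0.172). SOX7 rose 1.80-fold with the inhibitor against PXGL (log2 fold change 0.85, interval 0.11 to 1.58, edgeR adjusted p = 0.0479). That call held in 3 of 15 alternative fits, and without PXGL replicate 1 the log2 value was 0.62 (adjusted p = 0.175), and 0.36 for N2B27 against PXGL (adjusted p = 0.454). PINX1, which overlaps SOX7 on the same strand, was at 23.5, 39.3 and 35.5 CPM in PXGL, N2B27 and with the inhibitor, and it rose against PXGL by 0.74 and 0.60 on the log2 scale (edgeR adjusted p = 2.02e-05 and 1.86e-04). SOX7 counts were not whole in 3 of 9 libraries (24.01, 25.55 and 24.4), and the part of PINX1 in the SOX7 result was not tested.

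FOXA2 (hg38 chromosome 20, 22581005 to 22585455, minus strand), a forkhead factor of endoderm, had few counts in every library. It had 9, 9 and 4 counts in PXGL, 4, 3 and 0 in N2B27, and 18, 9 and 13 with EPZ-6438. In CPM the inhibitor libraries were at 1.21, 0.547 and 0.881, above all others, and the PXGL and N2B27 ranges overlapped. The CPM ratio of summed counts was 5.40 for the inhibitor over N2B27 (95% counting interval 2.39 to 14.3). It was 2.15 for the inhibitor over PXGL (1.25 to 3.80) and 0.398 for N2B27 over PXGL (0.144 to 0.964). The exact permutation test for the inhibitor against N2B27 gave p = 0.1, the smallest possible. Without a low-count filter, FOXA2 was higher than in N2B27 by 2.37 on the log2 scale (edgeR adjusted p = 0.0261, DESeq2 adjusted p = 0.0286). That call was lost without N2B27 replicate 3, the library with 0 counts (adjusted p = 0.161), without inhibitor replicate 1 (0.138) and without inhibitor replicate 3 (0.0553). The comparisons with PXGL did not pass (edgeR adjusted p = 0.222 for the inhibitor and 0.247 for N2B27 without the filter), nor did they without PXGL replicate 1 (adjusted p = 0.219 and 0.374).

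HNF4A (hg38 chromosome 20, 44355700 to 44434596, plus strand), a nuclear receptor of visceral endoderm and liver, had an order of groups unlike the GATA factors. The PXGL libraries were at 25.0, 29.7 and 33.5 CPM. The N2B27 libraries were at 7.94, 8.51 and 8.47 CPM, and the inhibitor libraries at 21.9, 20.7 and 20.4 CPM. PXGL was highest, N2B27 lowest, and no groups overlapped. Means were 29.4 ± 4.27, 8.30 ± 0.319 and 21.0 ± 0.818 CPM (SD, n = 3). HNF4A fell 3.53-fold in N2B27 against PXGL (log2 fold change -1.82, SE 0.12, interval -2.08 to -1.56, edgeR adjusted p = 2.34e-09). It rose 2.53-fold with the inhibitor against N2B27 (log2 fold change 1.34, SE 0.13, interval 1.07 to 1.60, edgeR adjusted p = 7.84e-07), number 556 of the 2149 rises. The inhibitor libraries still lay below PXGL, by 1.40-fold (log2 fold change -0.48, interval -0.72 to -0.25, edgeR adjusted p = 0.00147). Without PXGL replicate 1, the PXGL library with the lowest HNF4A, the log2 values against PXGL were -1.93 for N2B27 and -0.59 for the inhibitor group.

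PDGFRA (hg38 chromosome 4, 54229097 to 54298247, plus strand), the receptor for PDGF on hypoblast cells, did not pass the test in any comparison. The PXGL libraries were at 5.81, 4.88 and 4.94 CPM. The N2B27 libraries were at 5.22, 6.54 and 5.47 CPM, and the inhibitor libraries at 6.24, 6.32 and 4.14 CPM. All 3 groups overlapped, and inhibitor replicate 3 was the lowest of the 9 libraries. The inhibitor minus N2B27 difference was -0.04 on the log2 scale, with a 95% interval of -0.46 to 0.38 (edgeR adjusted p = 0.907). N2B27 minus PXGL was 0.14 (-0.28 to 0.56, adjusted p = 0.569) and the inhibitor minus PXGL 0.10 (-0.32 to 0.52, adjusted p = 0.699). Without PXGL replicate 1 these edgeR values were 0.23 (adjusted p = 0.386) and 0.18 (adjusted p = 0.491). These edgeR intervals hold 0 and leave room for a change of up to 0.56 on the log2 scale.

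**Figure D2:**
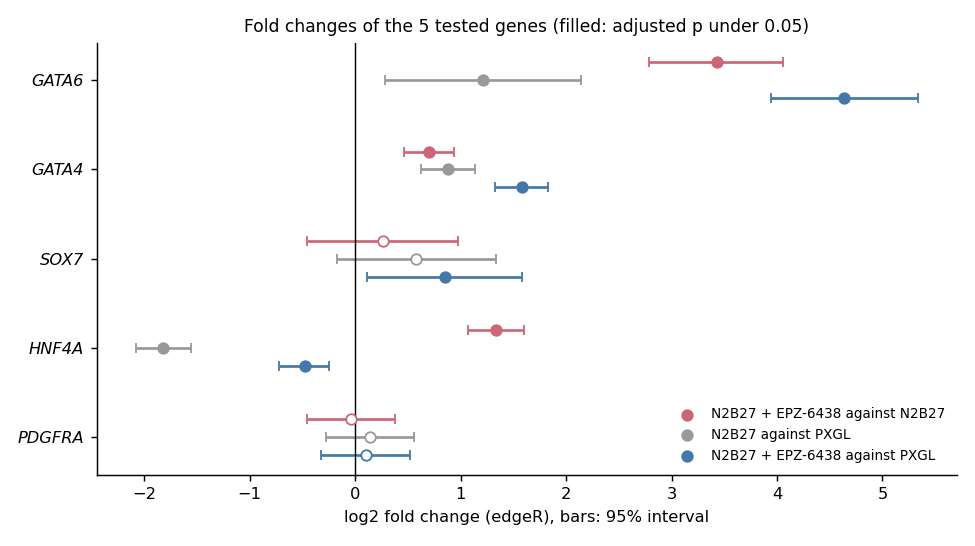
Log2 fold changes of the 5 genes that passed the low-count filter in the 3 comparisons, from edgeR, with 95% intervals as bars. Filled points passed an adjusted p under 0.05. GATA6 lies farthest to the right at 3.43 and 4.64, HNF4A changes side between comparisons, and every PDGFRA interval holds 0.

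Ranked per length, HNF4A was the most abundant of the 7 genes in PXGL at 13.2 ± 2.67 TPM, followed by GATA4 at 6.43 ± 1.02, PDGFRA at 2.27 ± 0.0899 and SOX7 at 1.07 ± 0.410 TPM. FOXA2, GATA6 and SOX17 were below 0.5 TPM there, at 0.473, 0.238 and 0.131 TPM. In N2B27, GATA4 came first at 11.6 ± 0.687 TPM and HNF4A next at 3.64 ± 0.153 TPM, while FOXA2 and SOX17 were at 0.190 and 0.0283 TPM. With the inhibitor, GATA4 was at 19.3 ± 0.520, HNF4A at 9.48 ± 0.375, GATA6 at 6.15 ± 1.27 and PDGFRA at 2.46 ± 0.539 TPM. SOX7, FOXA2 and SOX17 followed at 1.93, 1.06 and 0.874 TPM. GATA6 thus stood at place 6 of 7 in PXGL, 5 in N2B27 and 3 with the inhibitor. Neighbours in the order whose means lay within the sum of their SDs were SOX17 with GATA6 in PXGL, FOXA2 with GATA6 and SOX17 with FOXA2 in N2B27, and PDGFRA with SOX7, SOX7 with FOXA2 and FOXA2 with SOX17 with the inhibitor. The order depends on the length used at 1 place: by mean transcript length, GATA6 with the inhibitor (3.99 TPM) was below PDGFRA (4.43 TPM).

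**Figure D3:**
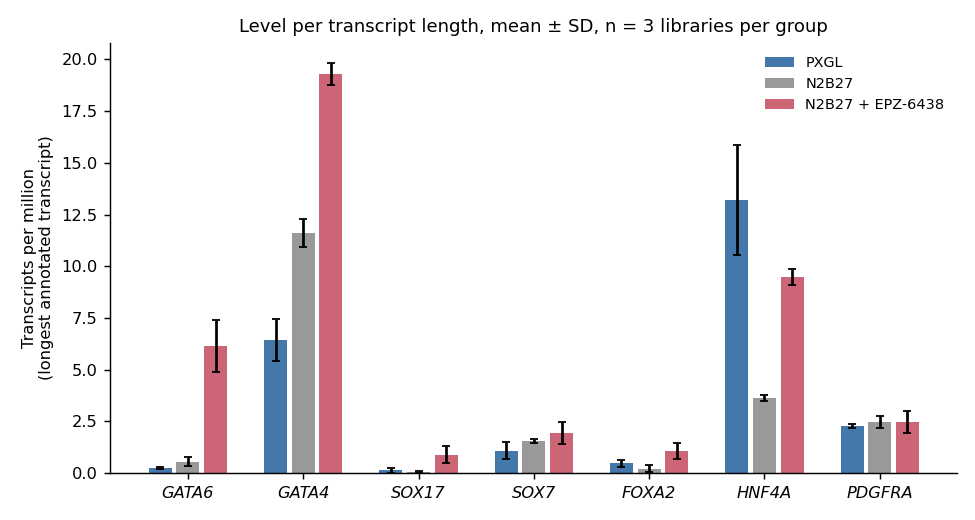
Level of the 7 genes per length of the longest annotated transcript, in TPM on a linear axis from 0. Bars are group means and whiskers ± SD (n = 3 libraries). GATA4 is the tallest of the inhibitor group at 19.3, HNF4A the tallest of PXGL at 13.2, and GATA6 is visible mainly with the inhibitor, at 6.15.

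Paralogs, cofactors and ligands of these genes were taken from lists of gene families. Among the 6 GATA genes, 5 were tested with the inhibitor against N2B27, and GATA6, GATA4 and GATA3 rose while GATA2 and GATA5 did not pass. GATA3, a trophectoderm and amnion factor, rose from 2.04 ± 0.244 to 6.68 ± 0.689 CPM (SD, n = 3), or 3.26-fold (edgeR adjusted p = 2.98e-05). GATA2, a haematopoietic and trophoblast factor, was at 0.823 and 1.54 CPM in N2B27 and with the inhibitor (edgeR adjusted p = 0.162). GATA5, a relative of GATA4 and GATA6, was at 1.06 and 0.709 CPM (adjusted p = 0.372), and it fell against PXGL by 1.48 on the log2 scale (adjusted p = 0.00459). GATA1, the erythroid factor, had 0 counts in every group. Of the GATA cofactors, ZFPM1 was at 1.04 and 1.31 CPM (edgeR adjusted p = 0.565) and ZFPM2 was too low to test, at 0.117 and 0.0878 CPM.

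Paralogs of SOX17, FOXA2 and HNF4A were also measured. SOX18, the remaining SOX F gene and an endothelial factor, was at 3.12 and 3.53 CPM in N2B27 and with the inhibitor (edgeR adjusted p = 0.690). It rose in N2B27 against PXGL by 1.27 on the log2 scale (adjusted p = 0.00165), so that PXGL was the low group. FOXA3, the most abundant FOXA gene in counts, fell 1.35-fold with the inhibitor, from 16.1 ± 3.41 to 11.9 ± 0.502 CPM (SD, n = 3, edgeR adjusted p = 0.0432), while FOXA2 lay higher there, as given above. HNF4G, a paralog of HNF4A, was at 1.93 and 1.09 CPM (adjusted p = 0.232). FOXA1, the remaining FOXA gene, had 2, 1 and 0 summed counts in PXGL, N2B27 and with the inhibitor.

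The ligands and receptors around PDGFRA differed between PXGL and N2B27. All 6 of its genes were tested, and 5 rose in N2B27 against PXGL, PDGFRA being the exception, where 27.3% of all tested genes were higher. The 5 include PDGFB, which was tested only because of the inhibitor libraries, and nothing particular to the family is read from the count. PDGFA, the main ligand of PDGFRA, rose 1.73-fold, from 38.6 to 67.0 CPM (edgeR adjusted p = 2.56e-07). PDGFC, another ligand of PDGFRA, rose 2.38-fold to 7.83 CPM (adjusted p = 1.43e-05) and PDGFD 3.36-fold to 1.37 CPM (0.00244). The receptor PDGFRB rose 13.0-fold, from 0.110 CPM (6 summed counts) to 1.52 ± 0.751 CPM (adjusted p = 1.48e-04). PDGFB, with 0 counts in PXGL, was at 0.394 CPM in N2B27, from 17 summed counts (adjusted p = 0.00214). It passed the low-count filter only through the inhibitor libraries, at 1.13 CPM, so its call between PXGL and N2B27 rests on groups below the filter. PDGFRB and PDGFB were thus near the floor in PXGL, which leaves the size of their rises uncertain. With the inhibitor against N2B27, PDGFA fell 1.31-fold, from 67.0 to 51.0 CPM (edgeR adjusted p = 0.00132), and the other 5 genes did not pass.

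**Figure D4:**
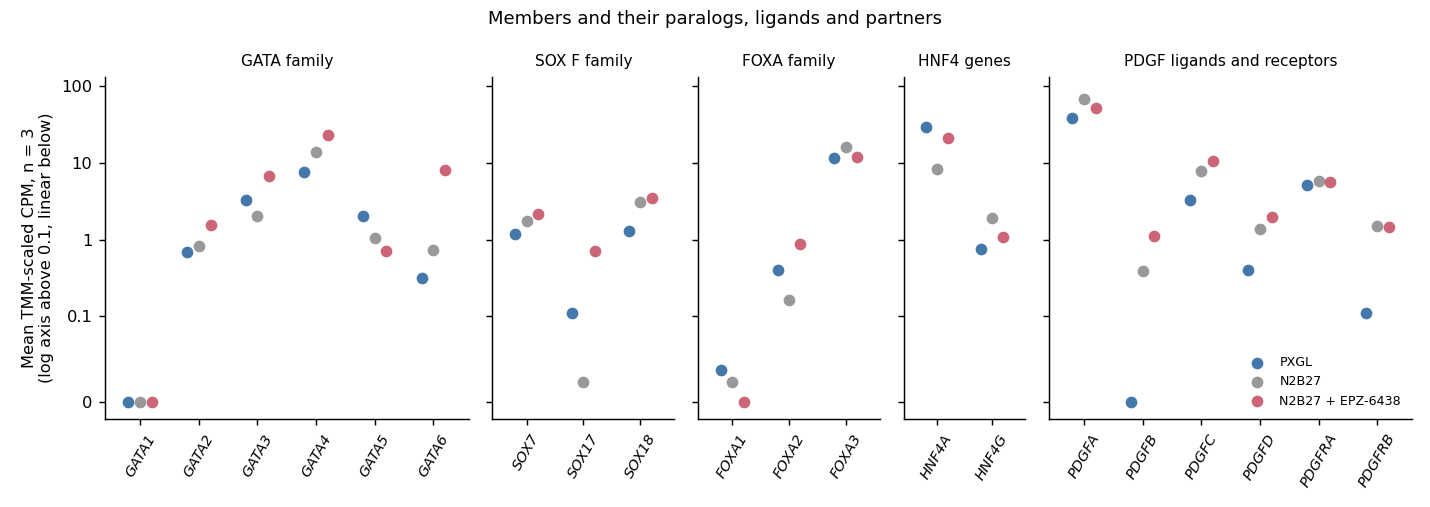
Mean level of the 7 genes and of family members in each group, in TMM-scaled CPM (n = 3 libraries per point), on an axis that is logarithmic above 0.1 and linear below. In the GATA panel, GATA3, GATA4 and GATA6 are highest with the inhibitor and GATA5 is highest in PXGL. In the PDGF panel every gene has its lowest mean in PXGL, and the 3 PDGFRA points lie closest together, between 5.21 and 5.74 CPM.

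Genes beside the 7 loci were looked at for changes that cover a neighbourhood. GATA6-AS1, the antisense gene that overlaps the GATA6 start, had 0, 1 and 8 summed counts in PXGL, N2B27 and with the inhibitor. Whether the counting used strand was not stated, and reads of GATA6 and GATA6-AS1 cannot be told apart where they overlap. LINC00261, beside FOXA2, had 0, 1 and 4 summed counts, and HNF4A-AS1 had 0 in every group. NEIL2 and FDFT1, downstream of GATA4, did not rise with the inhibitor: NEIL2 was at 16.7 CPM in N2B27 and 14.6 CPM with the inhibitor (log2 fold change -0.20, edgeR adjusted p = 0.186), and FDFT1 fell by 0.44 on the log2 scale (adjusted p = 1.20e-04). RP1, beside SOX17, was at 0.844 and 1.42 CPM (edgeR adjusted p = 0.234). FITM2 and TTPAL, on either side of HNF4A, had log2 fold changes of 0.31 and 0.02 with the inhibitor (edgeR adjusted p = 0.263 and 0.902).

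Other hypoblast genes were described by lists that do not hold the 7 genes. The counts of all lists stand beside 14.2% of all tested genes higher and 10.6% lower with the inhibitor against N2B27. They cover tested genes only, some of which passed the filter through the group where they are high, and nothing particular to a list is read from them. Of 23 other regulators and signals, 18 were tested with the inhibitor against N2B27: 11 rose, 4 fell and 3 missed the threshold, with a median log2 fold change of 0.67. LEFTY2, a NODAL antagonist, rose from 379 ± 9.98 to 845 ± 16.2 CPM (SD, n = 3, edgeR adjusted p = 3.54e-09). CER1, a secreted antagonist of NODAL, BMP and WNT made by anterior endoderm, rose from 2.72 ± 0.564 to 24.4 ± 1.83 CPM (adjusted p = 9.63e-09). CER1 had been at 0.0548 CPM in PXGL. The 4 that fell, named after their values were seen, were FGF4, the FGF ligand of epiblast cells, from 101 to 49.5 CPM, SALL4 from 242 to 192, FGFR1 from 146 to 117 and FOXA3.

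Of 26 structural and uptake genes of the hypoblast, 19 were tested: 10 rose, 3 fell and 6 missed the threshold, with a median of 0.37. FN1, encoding fibronectin, rose 2.47-fold from 87.2 to 216 CPM (edgeR adjusted p = 7.52e-08), and LAMB1, a laminin chain of basement membrane, rose 1.67-fold from 212 to 354 CPM (adjusted p = 1.44e-06). PODXL, a surface sialomucin also of pluripotent cells, fell 1.75-fold from 754 to 430 CPM (adjusted p = 2.70e-06). In PXGL it was at 18.8 CPM, so that PODXL was 22.8-fold higher with the inhibitor than in PXGL (edgeR adjusted p = 2.87e-15). APOB and SERPINH1 were the others that fell against N2B27, SERPINH1 named after its values were seen. TTR and APOA1, secreted proteins of visceral and yolk sac endoderm, had 0 counts in all 9 libraries. Of the uptake genes, LRP2 rose from 1.70 to 9.62 CPM (edgeR adjusted p = 1.21e-04) and AMN did not pass (adjusted p = 0.526). LRP2 and AMN were named after their values were seen. Of 8 genes that oppose hypoblast fate or mark the pluripotent state, 2 rose, 4 fell and 2 did not pass, with a median of -0.20. SOX2 fell 1.83-fold from 116 to 63.6 CPM (edgeR adjusted p = 5.53e-07) and PRDM14 1.34-fold from 118 to 88.0 CPM (adjusted p = 1.22e-04), while KLF4 rose 1.41-fold (adjusted p = 1.32e-04). Against PXGL, KLF4 fell in N2B27 and with the inhibitor, from 145 to 38.3 and 54.0 CPM.

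GATA6, GATA4, SOX17, FOXA2 and HNF4A are also made by cells other than hypoblast, and markers of such cells were followed too. For definitive endoderm and primitive streak, 8 of 11 tested genes rose and 1 fell (median 1.80), and the summed level of all 13 listed genes was 354 to 368 CPM in N2B27 and 552 to 579 CPM with the inhibitor. Sums such as this are weighted to the most abundant genes, here NODAL at 208 and 291 CPM, and do not stand for a list as a whole. CER1, EOMES, HHEX and NODAL of this list are also in that of the other hypoblast regulators. Other lists share genes too, and a shared gene is counted in each. HAND1 and ISL1 are in the lists of mesoderm and of amnion, and KDR in those of mesoderm and endothelium. CDX2 is in the amnion and gut lists, and APOB in the gut list and that of hypoblast structural genes. TBXT, the streak factor brachyury, rose from 5.81 to 65.7 CPM (edgeR adjusted p = 3.08e-10) and MIXL1 from 13.1 to 65.3 CPM (adjusted p = 1.51e-10). For mesoderm and heart, 6 of 9 tested genes rose and 1 fell (median 1.70), and the sum of 14 went from 49.9 to 52.0 CPM in N2B27 to 75.0 to 87.8 CPM. HAND1, a mesoderm factor, was at 1.87, 4.63 and 18.9 CPM in PXGL, N2B27 and with the inhibitor, and rose in both steps (edgeR adjusted p = 2.09e-04 and 1.05e-06). FOXC1, another, was at 10.1, 1.49 and 12.4 CPM: it fell in N2B27 (edgeR adjusted p = 1.22e-08), rose with the inhibitor (2.01e-08) and did not pass between the inhibitor and PXGL (0.137). For amnion and trophectoderm, 5 of 11 tested genes rose and 1 fell (median 0.89), and the sum of 15 was 117 to 118 CPM in N2B27 and 126 to 143 CPM with the inhibitor. Most of that sum was TFAP2C, at 89.5, 83.8 and 76.4 CPM in PXGL, N2B27 and with the inhibitor, which did not pass against N2B27 (edgeR adjusted p = 0.159). CDX2 was at 0.531 CPM in PXGL, 0.0457 CPM in N2B27 (2 summed counts) and 2.45 CPM with the inhibitor, through which group alone it passed the low-count filter. The amnion gene VTCN1 and the trophectoderm gene ELF5 had 0 counts in all 9 libraries, while other genes of this list were expressed. TFAP2A was at 2.74, 0.163 and 1.54 CPM in PXGL, N2B27 and with the inhibitor, and ISL1 at 6.33, 1.22 and 3.98 CPM. Both rose against N2B27 (edgeR adjusted p = 0.00184 and 7.64e-05), and IGFBP3 was the gene that fell (4.30e-04). VTCN1, ELF5, TFAP2A, ISL1 and IGFBP3 were named after their values were seen.

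Endothelial genes, which matter for SOX7 and SOX18, moved in both directions: 2 of 5 tested rose, 1 fell (median -0.06), and the sum of 10 was 47.2 to 50.6 CPM in N2B27 and 48.7 to 49.8 CPM with the inhibitor. The largest part in these groups was KDR, at 1.78, 29.9 and 22.0 CPM in PXGL, N2B27 and with the inhibitor. KDR was also the largest part of the mesoderm and heart sum there. CDH5, the endothelial cadherin, was at 13.6, 5.06 and 11.9 CPM in PXGL, N2B27 and with the inhibitor: it fell in N2B27 (edgeR adjusted p = 4.05e-06), rose 2.35-fold with the inhibitor (9.13e-05) and did not pass between the inhibitor and PXGL (0.333), while the VEGF receptor KDR fell 1.36-fold (adjusted p = 0.00312). For liver and gut, which matter for HNF4A and FOXA2, 2 of 7 tested rose and 1 fell (median -0.14), and the sum of 14 was 41.9 to 48.9 and 47.6 to 49.5 CPM. NR5A2 was the largest part of it, at 23.1 CPM in N2B27 and 19.1 CPM with the inhibitor. The gut factor CDX1 rose from 2.95 to 13.1 CPM (edgeR adjusted p = 4.27e-07), and APOB fell from 5.26 to 2.44 CPM (0.00906). The hepatocyte gene FGB had 0 counts in every group. ALB had 3, 0 and 0 summed counts in PXGL, N2B27 and with the inhibitor, and SERPINA1 of the same list had 0, 0 and 4. The part of these other cell types in the levels of the 7 genes was not tested. Of the PRC2 subunit transcripts, EZH2 was at 72.0 CPM in N2B27 and 82.5 CPM with the inhibitor (log2 fold change 0.20, edgeR adjusted p = 0.0415). That EZH2 call was lost with DESeq2 (adjusted p = 0.0547) and in edgeR without the low-count filter (0.123). EED rose by 0.49 and SUZ12 fell by 0.21 on the log2 scale (edgeR adjusted p = 0.00209 and 0.0213).

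**Figure D5:**
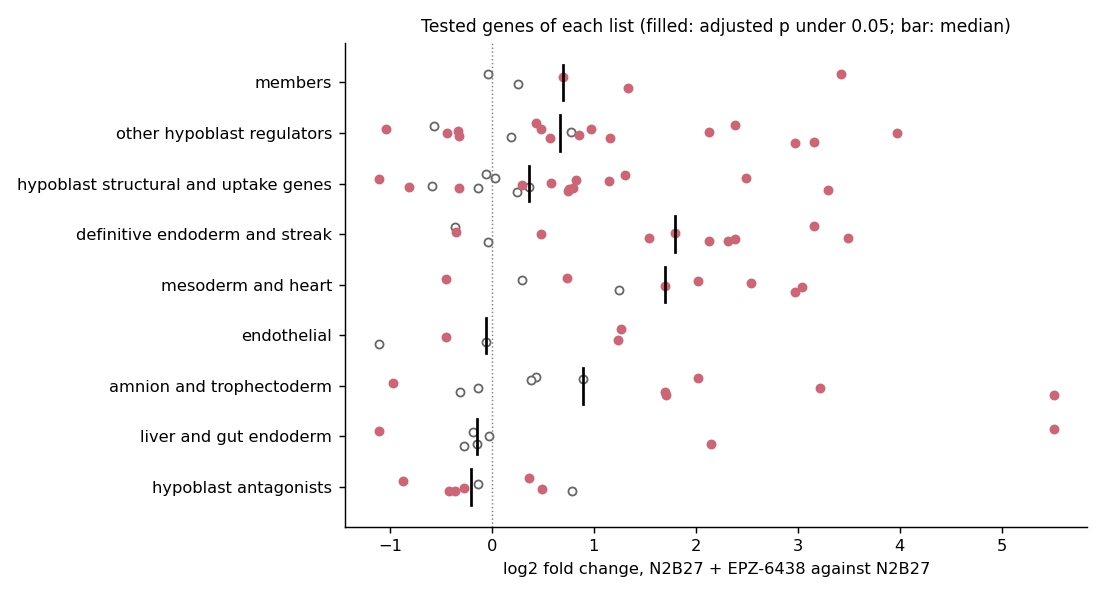
Log2 fold change with the inhibitor against N2B27 for every tested gene of 9 lists, from edgeR, with filled points for adjusted p under 0.05 and a bar for the median of each list. GATA6 is the rightmost point of the first row at 3.43. The median bar of the definitive endoderm and streak list is at 1.80, and that of the other hypoblast regulators at 0.67. The bar at 1.80 is the value of GSC, at 0.276 CPM in N2B27 and 0.981 CPM with the inhibitor, which passed the filter only through the inhibitor group. These lists share CER1, EOMES, HHEX and NODAL, and no difference between them is read from the bars.

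Genes whose levels followed those of the 5 tested genes most closely were found by Pearson correlation of log2 CPM over the 9 libraries, as a description. For GATA6, GATA4 and HNF4A, whose groups did not overlap, the differences between the 3 groups enter these values. The groups of PDGFRA overlapped, as did the inhibitor group of SOX7 with both others, so spread within groups enters theirs. For GATA6 the nearest were EXT1 (r = 0.994), CHMP4C (0.994) and CHST2 (0.991), and 102 of 11726 genes exceeded r = 0.95. EXT1, an enzyme of heparan sulfate synthesis, was at 32.1, 40.0 and 72.8 CPM in PXGL, N2B27 and with the inhibitor. For GATA4 the nearest were SLC6A17 (0.996), CELF2 (0.995) and ZC3H12C (0.995), with 360 genes above 0.95. For HNF4A they were YPEL2 (0.997), FRK (0.996) and RSPRY1 (0.993), with 170 genes above 0.95. YPEL2 was at 111, 25.8 and 74.8 CPM, which is the HNF4A order of groups. SOX7 had ITPR2 (0.952), POT1-AS1 (0.948) and LUZP1 (0.942) nearest, and PDGFRA had SNHG19 (0.907), SERPING1 (0.904) and OVCA2 (0.871), with no gene above 0.95 for PDGFRA.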

How the data were processed

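RNA-seq of 9 H1 libraries was used, 3 per culture condition. Library preparation depleted ribosomal RNA from Trizol-extracted RNA, per the labels' protocols, while the molecule label says polyA RNA. Expected counts, in which reads can be divided between genes, were deposited by the authors for 40332 symbols, and 7.13% to 8.09% of values per library were not whole. The hg38 genome, STAR 2.7.6a, Trim Galore and DESeq2 stand in the tool list, per the submitters' processing notes. Counting program, annotation and strandedness: not given in the sources used here; such choices set how reads of overlapping genes are divided.

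Counts were rounded, and library totals and 3 counts as the floor set what low genes can show. All 9 libraries were fitted in 1 model with a term per group with edgeR 4.0.16 (TMM, filterByExpr by group, robust quasi-likelihood, R 4.3.3). The standard error is the log2 fold change divided by the root of F. SOX17 and FOXA2 were below the filter and are given as counts with exact 95% intervals. Lengths and gene coordinates came from GENCODE 29 and start-site windows from RefSeq. The scripts were tested on simulated data. Alternatives were DESeq2 1.42.0 and its size factors, no scaling, no or a stricter filter, 2 groups only, the replicate number as a block, each library left out, mean transcript length and Spearman correlation. No filter together with each library left out was added for SOX17 and FOXA2 after seeing the data.

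The 7 genes and the lists were chosen with earlier results of these data known. Named are the 7 genes, family members with at least 3 counts in a group, up to 3 tested genes of each other list with the smallest adjusted p for the inhibitor against N2B27, genes within 50 kb of the 7 (those with counts), and the 3 most correlated genes with a mean of at least 5 CPM in a group. Other list members are only counted, except where said. Some genes that this rule names are not reported here.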

Additional observations from a re-analysis of the deposited data

How the results depend on the processing

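The calls of GATA6, GATA4 and HNF4A held in all 16 alternatives with the inhibitor against N2B27 (log2 fold change 3.16 to 3.60, 0.65 to 0.74 and 1.30 to 1.37) and against PXGL, as did those of GATA4 and HNF4A in N2B27 against PXGL. GATA6 in N2B27 against PXGL ranged from 1.04 to 1.48 when 1 library was left out, past the threshold in 6 of 9 such fits, and it was below the filter when only those groups were fitted. SOX7 with the inhibitor against PXGL did not pass with no scaling (0.82), DESeq2 (0.86), no filter (0.84), only 2 groups (0.85) or the replicate block (0.85, adjusted p = 0.0596), and it ranged from 0.62 to 1.09 with 1 library left out. SOX7 was not tested under the stricter filter. PDGFRA turned sign without N2B27 replicate 2 (0.06) or inhibitor replicate 3 (0.13), range -0.15 to 0.13, and against PXGL without inhibitor replicate 2 (-0.0044, range to 0.27). The cause was not tested. Genes called with the inhibitor against N2B27 numbered 3752, and 5641 with only these groups fitted; leaving out 1 library gave 2762 to 5770, the highest without PXGL replicate 1, and the replicate block gave 3696. Same-numbered libraries did not deviate together (correlations -0.026 to 0.037), and the replicate block changed no other call of the 5 tested genes (it was not run for SOX17 and FOXA2). By Spearman's rho the nearest genes were mostly others, such as LAMB1 for GATA4, with OVCA2 kept for PDGFRA. The low counts of SOX17 and FOXA2 limit their size estimates to the intervals given.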
